A study of Mus musculus with 8 samples.

Results

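Across the RRHP tables of adult oligodendrocyte progenitor cells (aOPC) and adult oligodendrocytes (aOL), 494 of 1497075 strand-resolved CCGG sites were read at least 50 times in both aOL libraries and at most 3 times in both aOPC libraries. These are called aOL-only sites here. They were selected on these very counts, so the gap between the populations is a description and was not tested. Of the 75714 sites with at least 50 counts in both aOL libraries, called deep aOL sites, 0.652% met the limit on aOPC counts. By the mirrored rule, 215 aOPC-only sites were found, 1.78% of the 12107 sites with at least 50 counts in both aOPC libraries, called deep aOPC sites. The mirror is in raw counts, and each aOPC library had fewer of these than the aOL library of the same replicate number. Relative to library total the mirrored rule was thus stricter, and its shares are not at a like level with those of aOL. Shares by position, fragment or annotation leave out 57 deep aOL and 22 deep aOPC sites outside the assembled chromosomes. Both populations were sorted by fluorescence from brains of mice at postnatal day 60 that the labels give as C57BL/6. The aOPC came from a reporter line that expresses EGFP from the Pdgfra locus. The aOL came from another line, in which Plp regulatory sequence drives EGFP, and the RNA titles call them pre-myelinating oligodendrocytes. Hence the population and the mouse line cannot be told apart. Each population had 2 RRHP and 2 RNA-seq libraries, replicates 2 and 3, and libraries numbered 1 were not analysed here. DNA and RNA came from one cell pellet. For the aOL RRHP samples the tissue field gives the Pdgfra reporter, and they were grouped by title. Nothing in the labels says how many mice went into a library.

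5-hydroxymethylcytosine (5hmC) is made from 5-methylcytosine by the TET enzymes, and in brain it is abundant within gene bodies. RRHP cuts DNA at CCGG with MspI, ligates adapters that restore the motif, protects hydroxymethylated junctions by glucosylation and cuts again, so that a read starts at a protected CCGG and runs into the restriction fragment. A site on the plus strand reads towards higher coordinates and a site on the minus strand towards lower ones. A count therefore needs 5hmC at the site and also a fragment between neighbouring CCGGs that can be amplified and mapped.

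The reference sequence at the most deeply read of these sites is shown because the spacing of CCGG is what most set them apart. Each run is GRCm38, starts at the CCGG of the site and follows the read, and capitals mark every CCGG. The 4 sites are among the 5 with the highest lower aOL level of the aOL-only sites that had 0 counts in both aOPC libraries, over 340 bases to the next CCGG and no annotated exon in the 300 bases printed. They lie at chr3:107117299-107117598 (minus strand, intergenic, nearest to the potassium channel gene Kcna2), chr16:7255247-7255546 (minus strand, intron of the splicing factor gene Rbfox1), chr3:156569335-156569634 (plus strand, intron of the cell adhesion gene Negr1) and chr7:68608276-68608575 (minus strand, intergenic).
Kcna2-side site: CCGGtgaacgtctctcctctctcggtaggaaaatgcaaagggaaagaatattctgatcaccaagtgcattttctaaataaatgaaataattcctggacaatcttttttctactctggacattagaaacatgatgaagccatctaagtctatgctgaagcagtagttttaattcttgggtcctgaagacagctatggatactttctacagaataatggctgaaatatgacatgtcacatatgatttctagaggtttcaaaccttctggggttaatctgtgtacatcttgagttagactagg
Rbfox1 site: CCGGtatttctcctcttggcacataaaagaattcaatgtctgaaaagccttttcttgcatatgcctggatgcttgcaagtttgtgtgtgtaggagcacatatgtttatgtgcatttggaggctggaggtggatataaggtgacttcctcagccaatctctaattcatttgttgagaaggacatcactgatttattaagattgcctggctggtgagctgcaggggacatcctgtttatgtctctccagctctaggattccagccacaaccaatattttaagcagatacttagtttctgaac
Negr1 site: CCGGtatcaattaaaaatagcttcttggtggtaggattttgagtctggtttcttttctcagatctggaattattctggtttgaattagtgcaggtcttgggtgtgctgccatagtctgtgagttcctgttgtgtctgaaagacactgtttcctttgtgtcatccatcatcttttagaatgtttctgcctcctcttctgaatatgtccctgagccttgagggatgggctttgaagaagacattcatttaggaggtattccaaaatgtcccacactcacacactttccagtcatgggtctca
Chromosome 7 site: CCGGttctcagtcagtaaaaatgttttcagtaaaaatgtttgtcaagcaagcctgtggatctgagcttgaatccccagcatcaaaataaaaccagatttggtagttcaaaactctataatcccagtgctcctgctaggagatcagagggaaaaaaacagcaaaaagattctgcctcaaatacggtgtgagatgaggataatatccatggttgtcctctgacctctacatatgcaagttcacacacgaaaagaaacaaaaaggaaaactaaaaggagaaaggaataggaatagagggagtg

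Each of these runs held only the CCGG at its start, which the choice of sites fixed. The next CCGG of the reference in read direction lay 3251, 2672, 4327 and 1229 bases away, in the order printed. For contrast, the whole reference fragment is given for the deep aOL site nearest to each of the Kcna2-side and Rbfox1 sites that had at least 10 counts in both aOPC libraries, and for the pair of aOPC-only sites with the highest lower aOPC level. The neighbours lie at chr3:107176519-107176615 (plus strand) and chr16:7158734-7158872 (minus strand, Rbfox1 intron). The aOPC-only sites lie at chr1:188060956-188061186 (minus strand, intron of the nuclear receptor gene Esrrg) and chr8:90290572-90290674 (plus strand, intron of the transcription factor gene Tox3).
Neighbour on chromosome 3: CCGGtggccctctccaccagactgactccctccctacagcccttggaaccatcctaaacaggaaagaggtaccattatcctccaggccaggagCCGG
Neighbour in Rbfox1: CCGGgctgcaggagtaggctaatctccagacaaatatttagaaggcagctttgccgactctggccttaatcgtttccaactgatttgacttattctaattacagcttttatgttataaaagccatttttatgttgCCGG
aOPC-only, Esrrg: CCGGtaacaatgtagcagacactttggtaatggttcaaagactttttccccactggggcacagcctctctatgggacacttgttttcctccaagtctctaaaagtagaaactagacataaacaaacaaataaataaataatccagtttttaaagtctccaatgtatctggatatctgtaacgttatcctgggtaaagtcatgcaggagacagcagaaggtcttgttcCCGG
aOPC-only, Tox3: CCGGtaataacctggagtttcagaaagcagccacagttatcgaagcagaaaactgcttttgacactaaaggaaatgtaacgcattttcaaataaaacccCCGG

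Each of these 4 runs is a whole fragment and so closes at a second CCGG, after 93, 135, 227 and 99 bases. The printed runs illustrate the lengths and are no support for a difference in them. The neighbour on chromosome 3 had aOPC counts of 35 and 142 (replicates 2 and 3, the order used throughout) and aOL counts of 51 and 87. The neighbour in Rbfox1 had 12 and 69 against 61 and 92. They were chosen for being read in both populations.

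The aOPC libraries totalled 7113237 and 17121440 RRHP counts, the aOL libraries 15923775 and 27057859. At the aOL-only sites the aOL counts ran from 50 to 270 in replicate 2 (median 73) and from 50 to 474 in replicate 3 (median 110). In aOPC, 370 of the 494 sites were at 0 in replicate 2 and 335 in replicate 3, and 268 were at 0 in both. Other deep aOL sites had nearly the same aOL counts, with medians of 73 and 111, and aOPC medians of 26 and 77. The aOL-only sites were thus ordinary in depth among deep aOL sites. Between the aOL libraries, 486 of the 494 sites (98.4%) were within 2-fold in CPM, the count scaled to a common library total, against 99.7% of other deep aOL sites. The limit of 50 counts in both libraries narrows this spread in both sets.

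**Figure D1:**
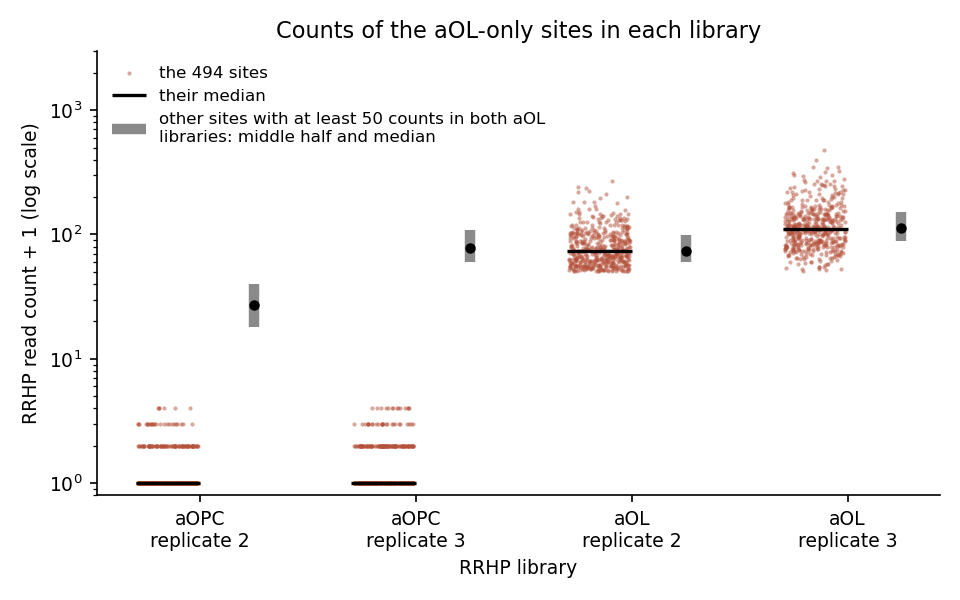
RRHP read count plus 1 (log scale) of the 494 aOL-only sites in each of the 4 libraries, 1 point per site, with a bar at their median and, in grey, the range between the quartiles and the median (dot) of the other sites with at least 50 counts in both aOL libraries. The aOL counts start at 50 and the aOPC counts end at 3 by the selection rule, and the aOL medians of 73 and 110 sit beside 73 and 111 for the other sites.

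With aOPC set to a floor of 3 counts per library (0.298 CPM on average), the median fold of aOL over aOPC was 14.3 (quartiles 11.6 to 19.0). For the 268 sites at 0 in both aOPC libraries this is a lower bound, at least 8.85-fold higher at each and at least 14.1-fold at the median. A site at its own aOL level would have given at least 18.4 counts in aOPC replicate 2 and at least 44.4 in replicate 3. Floors cover counting error only and not the spread between libraries. How duplicate reads were treated is not given in the sources used here.

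The highest lower level of the aOL libraries was found at chr8:34109183 on the minus strand, which the authors' table places in the promoter of Dctn6, a dynactin subunit gene, and RefSeq in an intron of Mboat4. It had 1 and 0 aOPC counts against 235 and 394 aOL counts, a mean of 14.7 ± 0.139 CPM (SD, n = 2). Next came chr9:123924758, with 1 and 1 counts against 220 and 474, and a site in an intron of Camta1, a calmodulin-binding transcription activator, with 2 and 1 against 270 and 349. The chromosome 3 site beside Kcna2 had 0 and 0 against 241 and 339, and the Rbfox1 site 0 and 0 against 195 and 320. In Rnf144a, a ubiquitin ligase gene, the counts were 0 and 0 against 223 and 316, and in Negr1 0 and 0 against 212 and 299. The rest of the 10 most deeply read sites lay in introns of D8Ertd82e (the kinase-like gene now named Prag1), with 1 and 0 against 182 and 309, of Apba2, an adaptor of the amyloid precursor protein, with 0 and 2 against 181 and 300, and of its relative Aplp1, with 0 and 0 against 201 and 279. Only the chromosome 9 site had a short reference fragment, of 34 bases. At the others the next CCGG was 491 to 4327 bases away.

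At the limits of the rule the counts were continuous. Just inside the aOL limit were chr1:5869807, with 0 and 2 counts against 50 and 87, and chr1:43448296 in Nck2, with 0 and 0 against 62 and 50. Just outside it were chr1:162702246 in Prrc2c, with 0 and 1 against 49 and 101, and chr1:181270680, with 0 and 0 against 49 and 119. Inside the aOPC limit were chr1:36081680 in Hs6st1, with 2 and 3 against 63 and 52, and chr1:139055002 in Dennd1b, with 3 and 0 against 129 and 205. Outside it were chr10:77435174, with 3 and 4 against 50 and 52, and chr10:127095806 in Os9, with 0 and 4 against 60 and 126. There were 18 sites with 3 counts in an aOPC library, and 37 deep aOL sites had a highest aOPC count of 4 or 5.

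The distance to the next CCGG separated the aOL-only sites from other deeply read sites. All sites compared lay at a CCGG of the reference. In read direction the next CCGG was over 500 bases away at 411 of the 494 aOL-only sites (83.2%), at 1447 of 75163 other deep aOL sites (1.93%) and at 0 of 215 aOPC-only sites. Without aOPC replicate 3 the first share was 44.9%, over the 960 sites that then met the rule. The median length was 1190.5 bases for aOL-only sites, 153 for other deep aOL sites and 167 for aOPC-only sites, of which the longest was 330. On the side away from the read the share over 500 bases was 67.6%, 62.4% and 63.7%. The groups thus stood apart in read direction. Selection set counts and not distances, but the counts are of the same contrast, so these shares are given without a test.

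**Figure D2:**
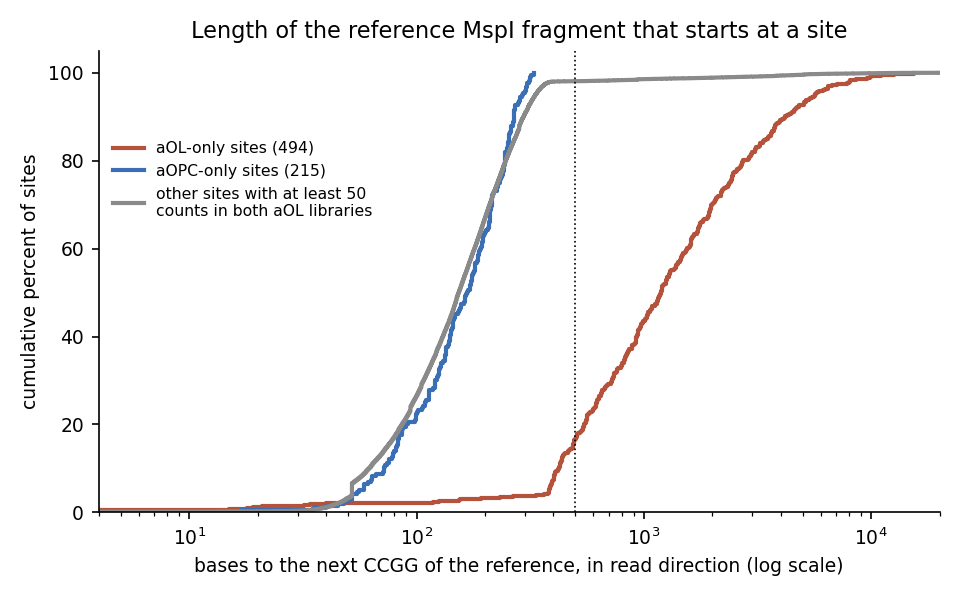
Cumulative percent of sites by bases to the next reference CCGG in read direction (log scale), for the 494 aOL-only sites, the 215 aOPC-only sites and the other sites with at least 50 counts in both aOL libraries; the dotted line is at 500 bases. The aOPC-only curve ends at 330 bases, whereas 83.2% of aOL-only sites lie to the right of the line.

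Seen from the fragments, 0.112% of the 73799 deep aOL sites with up to 500 bases to the next CCGG were aOL-only, against 22.1% of the 1858 with more. Between 400 and 500 bases 47 of 106 deep aOL sites were aOL-only, and between 40 and 100 bases 0 of 19101. Most long-fragment deep sites were nonetheless read in both populations: 1368 of the 1858 (73.6%) had at least 10 counts in both aOPC libraries. Of the 97 sites with over 500 bases and at least 50 counts in both aOPC libraries, 0 were aOPC-only. The sequence of the sorted mice themselves was not analysed here, so whether their DNA holds the CCGGs of the reference at these places was not tested.

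The far end of the reference fragment was seldom read. It was listed in any library for 159 of the 494 sites (32.2%), compared with 98.1% of other deep aOL sites, and 335 were at 0 there in all 4 libraries. At 3 fragments both ends met the rule. One spans 442 bases in Nck2, an SH2 and SH3 adaptor gene, and had 0 and 0 counts in aOPC at both ends, with 102 and 80 in aOL at one and 62 and 50 at the other. Another spans 436 bases in Chd9, a chromatin remodeller gene, with 0 and 1 counts against 110 and 198 at the plus end and 0 and 0 against 97 and 133 at the minus end. The third spans 508 bases between genes on chromosome 8, with 0 and 0 against 70 and 82, and 0 and 0 against 58 and 85.

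The opposite strand of the same CCGG reads into the other neighbouring fragment, and its depth was much like that at other deep aOL sites. It was listed for 240 of the 494 sites (48.6%, against 50.9% of other deep aOL sites) and at 0 in all 4 libraries for 254 (51.4% against 49.1%). At 62 sites it had at least 10 counts in both aOPC libraries (12.6% against 14.6%). Among deep aOL sites whose opposite strand was also deep in aOL, 7536 in all, that strand met the aOPC limit in 0.637%, and among the 48 aOL-only sites of this kind in 8. In Fto, an RNA demethylase gene, the aOL-only site at chr8:91407679 had 0 and 2 counts against 60 and 114, and its opposite strand 111 and 312 against 192 and 294. In Cd22, a sialic acid receptor gene, the site had 0 and 0 against 119 and 168, and the opposite strand 78 and 137 against 122 and 143. In Trps1, a zinc finger repressor gene, the corresponding counts were 0 and 0 against 87 and 111, and 69 and 147 against 105 and 158. At these sites aOPC was read well on one strand of a CCGG and not on the other. These 3 were taken from the highest aOPC counts on the opposite strand after the values were seen.

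Split by the length on that side, the 106 opposite strands with 41 to 340 bases to their next CCGG summed to 273 and 309 CPM in aOPC and 374 and 397 CPM in aOL, a ratio of 1.32. This direction rested on 1 strand, at chr9:123932987, and without it the ratio was 0.914. The 369 with over 340 bases summed to 7.87 and 8.41 CPM in aOPC and 81.6 and 69.9 CPM in aOL, a ratio of 9.31, but 244 of them were at 0 in all 4 libraries, and 8 were themselves aOL-only sites. Without those 8, whose counts the rule fixes, the sums were 7.59 and 8.35 CPM in aOPC against 29.6 and 25.4 CPM in aOL, a ratio of 3.45. Both subsets were formed after the values were seen. The 8 sites that met the rule on both strands are the pairs at chr1:175433033 in the G protein regulator gene Rgs7, chr12:35925943 in Agr3, chr8:31207887 in the fucosyltransferase gene Fut10 and chr3:107189460 in the potassium channel gene Kcna10. In Fut10 the counts were 0 and 0 against 118 and 171 on the plus strand and 0 and 0 against 114 and 164 on the minus strand.

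The aOL-only sites were unevenly spread over the genome. Chromosome 8 held 86, chromosome 4 held 68, chromosome 7 held 56, chromosome 12 held 48 and chromosome 1 held 42, whereas chromosome 2, with 5426 deep aOL sites, held 1 and chromosome 13 held 2. As a share of deep aOL sites this was 1.96% on chromosome 8 and 0.0184% on chromosome 2. The aOPC-only sites had a like distribution, with 6.34% of deep aOPC sites on chromosome 8 and 0 of 883 on chromosome 2. On chromosome X, 8 of 1190 deep aOL sites were aOL-only and 0 of 105 deep aOPC sites aOPC-only. Among deep aOL sites with over 500 bases to the next CCGG, 52.8% were aOL-only on chromosome 8, 42.5% on chromosome 4 and 0 of 83 on chromosome 2.

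**Figure D3:**
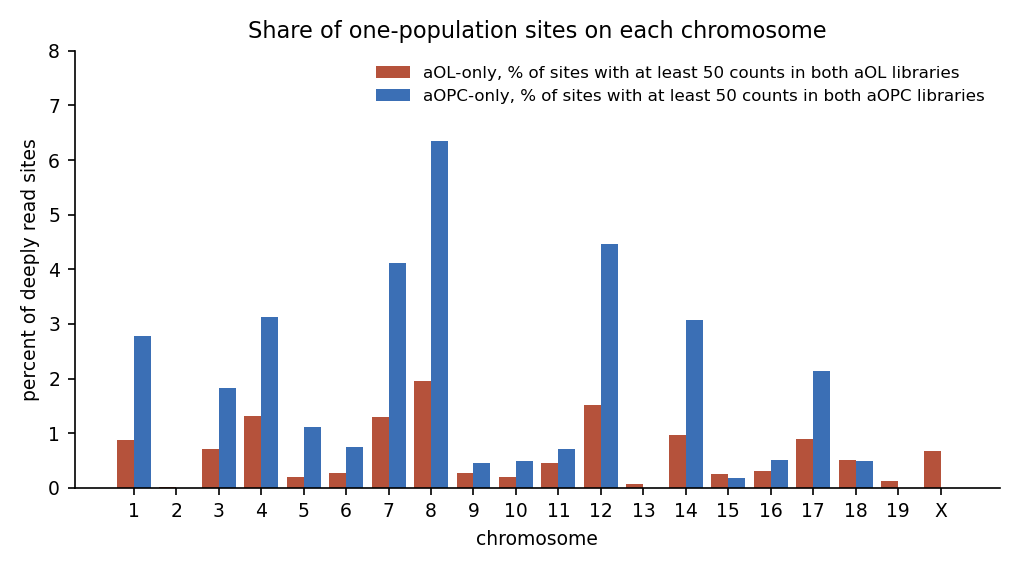
Share of deeply read sites that were aOL-only (of sites with at least 50 counts in both aOL libraries) or aOPC-only (of sites with at least 50 counts in both aOPC libraries), by chromosome. Both shares are highest on chromosome 8, at 1.96% and 6.34%, and near or at 0 on chromosomes 2 and 13.

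Within chromosomes the sites fell into blocks. In bins of 5 Mb, 152 of the 555 bins with a deep aOL site held an aOL-only site, and 30 bins with at least 5 each held 274 of the 494 (55.5%) but 8.20% of deep aOL sites. The fullest were chromosome 4 at 135 to 140 Mb, with 21 sites, and at 140 to 145 Mb, with 19, then chromosome 12 at 25 to 30 Mb and chromosome 8 at 90 to 95 Mb, with 15 each. In the first of these 16 of 16 deep aOL sites with over 500 bases to the next CCGG were aOL-only, in the second 17 of 18, in the third 13 of 15 and in the fourth 12 of 12. Over the 30 bins it was 231 of 285 (81.1%), while the 405 bins without an aOL-only site held 1103 such long-fragment sites. The bins were ranked by the sites they hold, so these shares carry no test.

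The aOPC-only sites lay in the same stretches. Of the 215, 197 (91.6%) fell in bins that hold an aOL-only site, and those bins held 32.5% of deep aOPC sites. Chromosome 4 at 135 to 140 Mb held 14 of them, beside its 21 aOL-only sites. The share of deep aOPC sites that were aOPC-only was 10.3% at 10 to 100 kb from the nearest aOL-only site (59 of 573) and 0.0201% beyond 10 Mb (1 of 4987). For aOL-only sites and the nearest other aOL-only CCGG, it was 4.20% of deep aOL sites at 10 to 100 kb and 0.0793% beyond 10 Mb. Both kinds of one-population site thus thinned out together with distance.

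**Figure D4:**
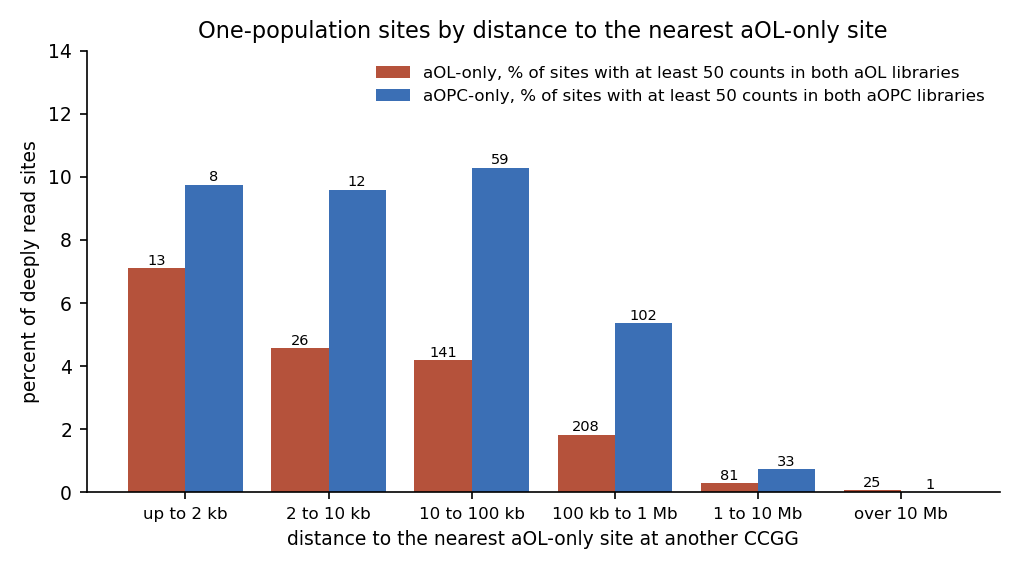
Share of deeply read sites that were aOL-only or aOPC-only, in classes of distance to the nearest aOL-only site at another CCGG; numbers over the bars are sites. Within 100 kb the aOL-only share is 4.20% to 7.10% and the aOPC-only share 9.60% to 10.3%, and beyond 10 Mb they are 0.0793% and 0.0201%.

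Single sites next to aOL-only sites were mixed. Within 2 kb, at other CCGGs, 2016 sites were listed, of which 311 (15.4%) had at least 10 counts in all 4 libraries, against 11.4% of all sites. Of the 2016, 36 (1.79%) had at least 10 counts in both aOL libraries and 0 in both aOPC libraries, against 0.173% of all sites. In the opposite direction it was 42 (2.08%), against 0.161%. Counted by site, 145 aOL-only sites (29.4%) had a CCGG within 2 kb that was read at least 10 times in all 4 libraries. For deep aOL sites this share was 69.1%. The nearest CCGG read at least 10 times in all 4 libraries was 4344.5 bases away in the median from an aOL-only site, and 252 bases from a deep aOL site.

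With gaps of up to 100 kb joined, 184 aOL-only sites formed 73 groups of at least 2, and 310 stood alone. Sites with another within 100 kb numbered 192 to 529 when an RRHP library was left out. With all libraries, the largest group held 8 sites over 209 kb at chr8:36013754-36222480, across D8Ertd82e and into an intron of Lonrf1, a ring finger gene. All 8 had at most 2 counts in either aOPC library, and 62 to 182 and 82 to 309 in the aOL libraries. At 7 of them the next CCGG was over 500 bases away. The site at chr8:36187544, with 2 and 0 counts against 106 and 131, had 60 and 123 against 137 and 200 on its opposite strand. Groups of 5 lay at chr4:140570449-140717715, with 3 sites in introns of the guanine nucleotide exchange factor gene Arhgef10l and 2 in Rcc2, a chromosome condensation regulator gene, and at chr7:45812468-46098514, over Cyth2, Tmem143, Ccdc114, the transporter gene Abcc6 and the potassium channel gene Kcnj11.

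The third group of 5, at chr9:123924758-123936634, was unlike the rest. It spans 11.9 kb at Gm51701, in an exon of which 1 of its sites lies, 3 of its sites lie in CpG islands 4 to 40 bases from the next CCGG, and its counts reached 474 in aOL replicate 3. The site at chr9:123925339 had 3 and 1 counts against 106 and 350, and its first 40 bases were found at 2 CCGG ends of the reference. At chr9:123932987 the site had 0 and 0 against 61 and 113, and its opposite strand 71 and 123 against 1666 and 4066. Over all aOL-only sites, first bases shared with another CCGG end were less frequent (29 sites, 5.87%) than over other deep aOL sites (10.9%).

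On chromosome 5, 8 of the 11 sites lay within 10 Mb of Pdgfra (chr5:75151322-75198206), the locus that carries the reporter of the aOPC line, and the nearest was 0.879 Mb away. In that window 1.56% of 513 deep aOL sites were aOL-only, against 0.205% over chromosome 5 and 0.652% over the genome. Of 84 deep aOPC sites there 9 were aOPC-only, against 9 of 802 (1.12%) over chromosome 5 and 1.78% over the genome. Within 5 Mb it was 6 of 302 deep aOL sites and 8 of 48 deep aOPC sites. Some bins of 5 Mb on other chromosomes had higher aOL-only shares, such as 15.4% on chromosome 8 at 35 to 40 Mb. That bin was picked from the fullest, and its width differs from that of the windows. Whether nearness to the reporter bears on these sites was not tested.

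By annotation the aOL-only sites resembled deep aOL sites at large. The authors' columns placed 233 (47.2%) in introns, 36 (7.29%) in exons, 16 (3.24%) in promoters and 6 (1.21%) in CpG islands, and 214 (43.3%) in no gene or promoter. For other deep aOL sites these shares were 47.6%, 10.9%, 3.20%, 0.776% and 40.9%. RefSeq placed 24 sites in coding sequence, 27 in other exonic sequence, 269 in introns and 174 between genes, of which 18 were over 100 kb from any gene. Coding sites included that in the heat shock protein gene Hsp90ab1, with 0 and 1 counts against 116 and 162.

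The 16 promoter sites belonged to 15 genes, among them the immunity-related GTPase genes Igtp and Irgm2, the monocarboxylate transporter gene Slc16a7 and Xpot, which exports transfer RNA. A pair of genes had a site in their promoter and in a CpG island, both with a short fragment. In Mrto4, a ribosome assembly factor gene, the site had 2 and 1 counts against 70 and 135 and a fragment of 118 bases. In Clcn4-2, a chloride and proton exchanger gene, it had 0 and 1 against 92 and 129 and a fragment of 40 bases. Over all aOL-only sites 20 had at most 340 bases to the next CCGG, and 11 of these at most 40.

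Exons and introns of 220 genes held an aOL-only site, 35 of them at least 2 and 11 at least 3. Rbfox1 and Chd9 held 4 each. Groups of 3 lay in Rnf144a, Fto, D8Ertd82e, Arhgef10l, the metalloprotease gene Adamts17, the Arf regulator gene Asap2, the F-box gene Fbxo42, the synaptic adhesion gene Igsf21 and the receptor phosphatase gene Ptprg. In Rbfox1 the 4 sites were 4 of 385 listed, and the 379 at neither an aOL-only nor an aOPC-only CCGG summed to 283 ± 42.4 CPM in aOPC and 245 ± 11.8 CPM in aOL (SD, n = 2). In Chd9, the 180 such sites summed to 124 ± 0.713 CPM in aOPC and 88.5 ± 2.13 CPM in aOL, and in Fto the 348 such sites to 484 ± 70.0 and 428 ± 6.44 CPM. Over the 11 genes with at least 3 sites these sums averaged lower in aOL in 10, beside 49.5% of all genes, and higher in Fbxo42, at 48.6 ± 1.73 CPM in aOPC and 56.3 ± 3.93 CPM in aOL. With every site kept they averaged lower in 8, and Rnf144a and D8Ertd82e were then higher in aOL.

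Across the 217 host genes with at least 10 such counts in every library, the ratio of aOL to aOPC had a median of 0.952 (quartiles 0.838 to 1.09). Over all genes, treated in the same way, the median was 1.002 (0.863 to 1.12). With every site kept the medians were 1.08 and 1.003, so the direction turned with the selected sites, and no difference is read from it. Without the selected sites no host gene had a ratio over 2, and 4 of the 217 had one under 0.5. Over all 17279 genes so treated it was 53 and 471. With every site kept it was 15 and 1 of 218 host genes, and 67 and 478 of all 17281 genes. Among the 4 under 0.5 was Cys1, a cilium gene chosen after its values were seen, which held 1 aOL-only and 3 aOPC-only sites. Its 29 sites at other CCGGs summed to 16.6 ± 2.31 CPM in aOPC and 3.76 ± 0.168 CPM in aOL. In all, 26 of the 220 host genes (11.8%) also held an aOPC-only site, against 0.593% of the 10280 other genes with a deep aOL site, which were shorter.

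RNA is a separate measure of these genes, which the selection did not use. The deposited RNA values are log2 levels, and at 97.4% of ranks the 4 libraries had the same value within 0.05, so each library holds nearly the same set of numbers and a shift shared by most genes cannot be seen. Oligodendrocyte markers did not separate the RNA libraries by their labels, on which every direction given here rests. For the sorted cells the paper reports staining in which most of each population carried the markers of its label. The 12 oligodendrocyte markers averaged 17.92 and 17.60 in aOPC against 17.68 and 17.77 in aOL. Singly, 4 of them were lower and 1 higher in aOL with an unadjusted limma p under 0.05. Of 12 progenitor markers 11 were listed, 5 with a higher and 6 with a lower mean in aOL and a median log2 difference of -0.40. Pdgfra was 7.54 and 5.47 against 4.98 and 1.63, a log2 difference of -3.20 ± 1.37 (SE, adjusted p = 0.250 by limma over all genes tested). None of the oligodendrocyte and progenitor markers held an aOL-only site. Of 8 endothelial markers 2 were listed, and Cldn5, of tight junctions, was 0.33 and 1.80 against 5.92 and 7.13, and Kdr, a receptor of vascular growth factor, 9.07 and 9.36 against 9.73 and 10.07. Means were lower in aOL for 7 of 9 listed microglial, 6 of 8 astrocyte and 6 of 6 neuronal markers. The part of these cell types in the RNA differences was not tested. Tet1, Tet2 and Tet3, the enzymes that make 5hmC, differed by 0.06, 0.23 and -0.27 on the log2 scale, with adjusted p of 0.883, 0.855 and 0.529.

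Of the 220 host genes 165 were in the RNA table and 164 were tested. At the thresholds used, p under 0.01 and adjusted p under 0.05 by limma, 0 of the 164 were called, with 1 gene called higher in aOL (0.00898%) and 8 lower (0.0719%) among all 11133 tested. At an unadjusted p under 0.05, 38 host genes (23.2%) were higher in aOL and 14 (8.54%) lower, against 12.1% and 12% of all genes. Among the 6513 other genes that hold a deep aOL site the shares were 14.3% and 8.55%, and among the 54 that hold an aOPC-only and no aOL-only site 27.8% and 18.5%. Both aOL libraries lay above both aOPC libraries in 75 host genes (45.7%) and below in 38 (23.2%), against 31.9% and 29.9% of all genes. The median log2 difference was 0.19 in host genes and 0.02 over all. Host genes were longer, with a median of 81.6 kb against 34.9 kb for the other genes with a deep aOL site, and the part of length was not tested. Leaving out aOPC RNA replicate 2 or replicate 3 brought the called host genes to 63 and 45, of 3995 and 2344 called in all. Such a fit leaves 1 library in a population and takes its spread from the other population. Without aOL RNA replicate 2 or 3 it was 2 and 1, of 100 and 99 called in all, and under the replicate block 2 of 127.

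Host genes with the lowest p were mostly higher in aOL. Kcnj10, the glial inward rectifier potassium channel, was 13.49 and 12.95 in aOPC against 16.23 and 16.03 in aOL, a log2 difference of 2.91 ± 0.27 (SE, adjusted p = 0.0780 by limma), and its intronic site at chr1:172348345 had 1 and 0 counts against 75 and 95. Hspg2, which encodes the basement membrane protein perlecan, was 7.41 and 7.63 against 9.40 and 9.18, and Tnks, a poly-ADP-ribosyltransferase, 11.47 and 11.33 against 13.30 and 12.97. Rnf144a, with 3 sites, was 11.71 and 11.61 against 13.09 and 13.07, a difference of 1.42 ± 0.19 (SE, adjusted p = 0.112 by limma). Cnih3, an auxiliary protein of AMPA receptors with 2 sites, went the other way, at 6.95 and 7.48 in aOPC against 4.57 and 3.61 in aOL. In all, 21 host genes had an unadjusted p under 0.01, 17 (10.4%) higher and 4 (2.44%) lower in aOL, against 3.45% and 3.72% of all genes.

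**Figure D5:**
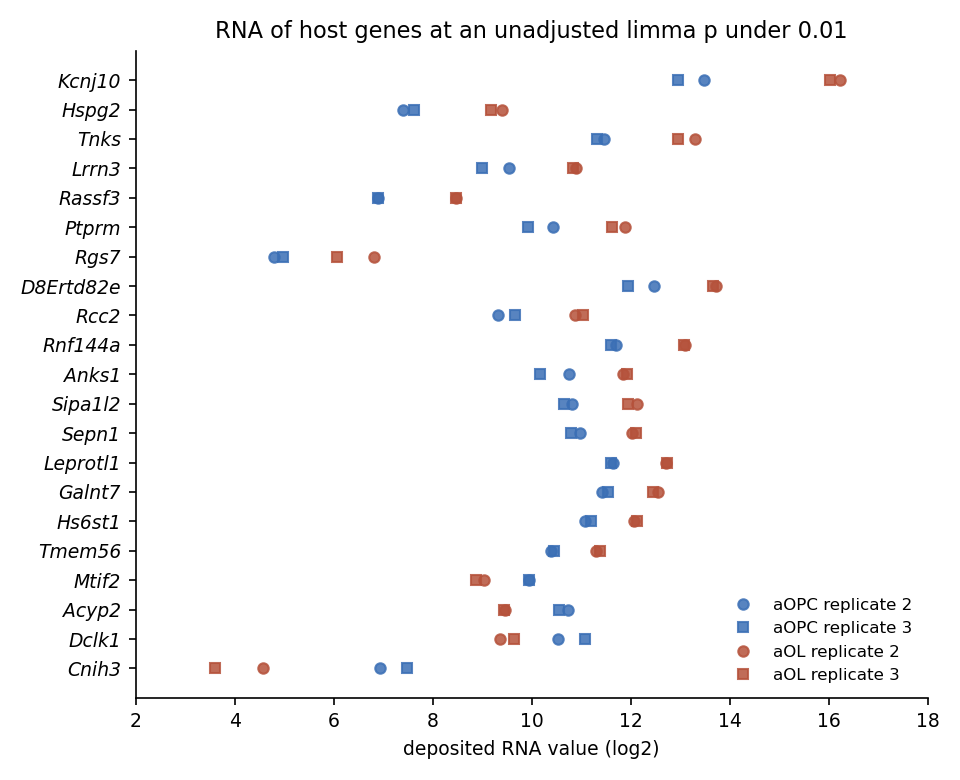
Deposited RNA value (log2) in each of the 4 libraries for the 21 genes that hold an aOL-only site and had an unadjusted limma p under 0.01, ordered by the difference between populations. In 17 of them both aOL libraries lie above both aOPC libraries, from Kcnj10 at 13.49 and 12.95 against 16.23 and 16.03 downwards, and in 4 below.

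Of the 11 genes with at least 3 sites 8 were in the RNA table, and in 6 of them both aOL libraries lay above both aOPC libraries, against 31.9% of all genes. Besides Rnf144a these were Fto, D8Ertd82e, Asap2, Fbxo42 and Ptprg. Chd9 lay below, as did 29.9% of all genes, and Arhgef10l overlapped. Chd9 was 10.96 and 10.74 in aOPC against 10.73 and 10.38 in aOL, and Fto 13.29 and 13.60 against 13.87 and 13.80. D8Ertd82e was 12.48 and 11.95 against 13.72 and 13.66, Asap2 9.39 and 9.18 against 10.35 and 9.99, and Arhgef10l 8.53 and 5.18 against 6.32 and 6.78. Fbxo42 was 10.82 and 10.85 against 11.27 and 11.22, and Ptprg 6.36 and 7.05 against 8.32 and 7.52. Among the solute carrier genes with a site, Slc7a2, a cationic amino acid transporter, was 7.26 and 8.07 against 6.75 and 6.50, Slc25a17, of the peroxisome, 11.82 and 11.97 against 11.43 and 11.52, and Slco3a1, an organic anion transporter, 14.40 and 14.20 against 14.51 and 14.47. Slc16a7 was 9.48 and 9.48 against 9.21 and 8.88. The adjusted p of these 4 by limma was 0.192, 0.267, 0.580 and 0.293. Of the 11 promoter genes tested, 1 was lower and 1 higher in aOL at an unadjusted p under 0.05 (9.09% each), near the 12% and 12.1% of all genes. Of the same 11, 2 had a positive log2 difference, and the median was -0.39 against 0.02 over all genes. The gene lower at that p was Dctn6, at 12.33 and 11.87 against 11.20 and 11.33, and the gene higher was Xpot, at 10.78 and 10.79 against 11.82 and 11.68. Besides Xpot the difference was positive in Pcp4l1, at 5.46 and 3.13 against 6.11 and 5.90.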

How the data were processed

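RRHP and RNA-seq were analysed for 2 libraries per population (8 in all). The deposited RRHP values are raw read counts per CCGG cytosine and strand, which the authors aligned to mm10. The aligner and the treatment of duplicates are not given in the sources used here. The deposited RNA values are log2 levels of genes. From the methods and the submitters' notes, the authors used BWA, featureCounts and, for normalization, DESeq2 (1.2.5 in the notes, another version in the methods). The step that gave the libraries nearly equal ranked values is not given in the sources used here.

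The 4 RRHP tables were joined by site, and a site missing from a table was given 0. Positions are 1-based on GRCm38. CCGGs and sequences were read from the RefSeq GRCm38.p6 genome with pysam 0.24.0 and samtools 1.23.1. Sites, their distances and lists are described without tests, because the sites were selected on the counts. The sites and lists were chosen with earlier results of these data known. RNA was fitted by limma 3.58.1 (lmFit, eBayes, two-sided, population as the only term) over genes with log2 of at least 5 in at least 2 libraries, with Benjamini-Hochberg adjustment over all of them, and the fit was tested on simulated data. TMM factors came from edgeR 4.0.16. R 4.3.3, Python 3.11.15, pandas 2.3.3, numpy 2.4.6 and matplotlib 3.10.9 were used.

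Named sites were the 10 with the highest lower CPM in aOL, those of the largest groups and those next to each limit. Named genes were those that hold such sites, those with at least 3 sites, those with a site in a promoter and CpG island, host genes at an unadjusted p under 0.01 and host genes of the marker and solute carrier lists. Some named items are not reported here. Others are marked where they were chosen after their values were seen. The study calls its replicates biological, but the labels tie no library to named animals, and spreads and p-values cover the difference between these libraries. Alternatives changed the count limits, the floor and scaling, the gap, each library, the RNA filter, a limma trend and a replicate block.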

Additional observations from a re-analysis of the deposited data

How the results depend on the processing

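Depth and the limits set how many sites qualified. At least 30 or 100 counts in aOL gave 1182 and 104 sites (18 and 2 with both strands), 0 in both aOPC libraries gave 268 (70 within 100 kb of another), and thinning all libraries to the smallest total gave 43. Gaps of 10 kb and 1 Mb gave 47 and 390 sites with another nearby. Leaving out an RRHP library gave 507 to 1049 sites, 8 to 16 with both strands and 192 to 529 within 100 kb; without aOL replicate 2 each was at its highest. The share with the next CCGG over 500 bases away, whose alternatives were chosen after seeing the data, ran from 44.9% to 82.9% when a library was left out. The low value was without aOPC replicate 3, which left the aOPC limit to the shallowest library (960 sites). Under its other alternatives it ran from 67.9% (at most 10 aOPC counts) to 89.2% (0 aOPC counts). The median fold bound was 30.3 without scaling and 42.8 with a floor of 1 count.

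In RNA, the called host genes numbered 1 with a limma trend and 2 under the replicate block, and 1 to 63 when a library was left out. The block is a check only: same-numbered libraries come from different mouse lines, and their deviations correlated at -0.07 across genes. The shares higher and lower at an unadjusted p under 0.05 ran from 7.98% to 38.7% and from 1.84% to 19.0% when a library was left out, and those of all genes from 2.17% to 30.2% and from 3.23% to 30.6%. Each of these fits leaves 1 population with a single library, which is assumed to vary like the other population. Promoter genes gave 9.09% higher and 9.09% lower, and genes with at least 2 sites 30.8% and 15.4%, against 12.1% and 12% of all genes. The cause of these shifts was not tested. Another 33 values under the alternatives kept within 1.5 times of the reported ones, or within the spread of the aOL libraries for the fold.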
